A study of Mus musculus with 6 samples.

Results

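The microRNAs (miRNAs) described here in mouse osteoclasts are best known from epithelium: miR-200a, miR-200b and miR-200c of the miR-200 family, with miR-203 and miR-205. They were picked by name, and these 5 are among 104 miRNAs that gave a threshold cycle (Ct) in every sample on a real-time PCR array. The array held 3 ACLT samples, osteoclasts from mice whose anterior cruciate ligament had been cut 2 weeks before, which destabilises the knee (ACLT stands for this transection), and they were set against 3 Sham samples, osteoclasts from mice 2 weeks after a sham operation. In both groups the cells were sorted magnetically from bone marrow as OSCAR+CTR+ (osteoclast-associated receptor and calcitonin receptor). The series text states that RNA of 3 mice per group was pooled in equal amounts, while the labels number 3 samples in each group without saying how these relate to the pool. The p-values below therefore cover no more than the spread among these samples, and that spread may be technical. The sources used here do not state the strain, age or sex of the mice. The array measured no mRNA, so the sort markers could not be checked on it.

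The miR-200 family holds 5 miRNAs made from a pair of gene clusters, Mir200b, Mir200a and Mir429 in one and Mir200c and Mir141 in the other. Its members repress the transcription factors Zeb1 and Zeb2, which repress the miR-200 genes in turn, and this loop holds epithelial cells in their state. miR-205 also represses Zeb1 and Zeb2, and miR-203 is known from skin, where it represses the stem cell factor p63. A miRNA finds its targets mainly through its seed, bases 2 to 8, so that members with the same seed share many predicted targets.

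The mature sequences are printed because they decide which members share a seed and which assays lie close to each other. They are those of RefSeq (build GRCm38.p6), are identical to the sequences in the array's own annotation, and are written 5′ to 3′ with the seed in capitals.
miR-200b: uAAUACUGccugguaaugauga
miR-200c: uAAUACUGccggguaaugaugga
miR-429: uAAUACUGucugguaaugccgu
miR-200a: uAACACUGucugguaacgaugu
miR-141: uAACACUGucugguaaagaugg
miR-203: gUGAAAUGuuuaggaccacuag
miR-205: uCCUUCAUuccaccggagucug

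miR-200b, miR-200c and miR-429 have 1 seed, and miR-200a and miR-141 have another. Counted from 1 at the 5′ end, miR-200b differs from miR-200a at 4 of 22 positions (U4C, C9U, U17C and A22U, the first base being that of miR-200b), and U4C is the only one of these in the seed. miR-200b differs from miR-200c at 2 of 22 positions, U11G and A22G, and in the additional last base of miR-200c. The assays of these miRNAs can share signal, which was not tested. miR-203 and miR-205 each have a seed that no other assay of the array carries.

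The mature miR-200b lies at chr4:156055685-156055706 and the mature miR-200a at chr4:156054911-156054932, both on the minus strand, with 695 bases between their hairpins. Both hairpins, and that of Mir429, overlap the long non-coding RNA gene Gm13648. The mature miR-200c lies at chr6:124718324-124718346 on the minus strand, 336 bases from Mir141 hairpin to hairpin, and overlaps no other gene of the annotation. The mature miR-203 lies at chr12:112130927-112130948 on the plus strand, and its hairpin overlaps the miRNA gene Gm51289. The mature miR-205 lies at chr1:193507503-193507524 on the minus strand within its host gene Mir205hg. Coordinates are of GRCm38.p6.

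Of the 12 assays on the array for these miRNAs, for miR-141 and miR-429 and for their star strands, 5 had a Ct in every sample and 7 did not. Only wells with a Ct in every sample were counted as having one, and whether the 7 had a Ct in some samples was not looked at. The 7 were miR-141, miR-429, miR-141*, miR-200a*, miR-200b*, miR-200c* and miR-203*. miR-429 thus lacked a full set of Ct values although both other miRNAs of its cluster had one. The same held for miR-141 although its neighbour miR-200c had a full set. A well with no Ct gives no upper limit here, since the sources used here do not state how the threshold was set.

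The samples of a group were not fully separate measurements. In 77 of 110 wells with a Ct, the Ct of the third ACLT sample equalled that of the second multiplied or divided by 0.99 within 0.002 cycles. In the Sham group the same held for 82 of 110 wells with a factor of 0.978, whereas the other 13 pairs of samples shared a factor in 2 to 4 wells. miR-203 and miR-205 were on the factor in both groups and miR-200a in the Sham group, and miR-200b and miR-200c were on it in neither. For a miRNA on the factor the third value of a group adds no independent measurement, so its SD and its test count a dependent value. The limma fit used below pooled the spread over all 101 tested miRNAs, of which 70 were on the factor in both groups. The SE, intervals and p of miR-200b and miR-200c thus rest in part on dependent values as well. Among all 104 miRNAs the factor held in both groups for 71 and in neither for 16.

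Raw Ct also followed the order of the wells. A rising series here is a set of miRNAs in well order whose Ct rises from each to the next of the set, with other wells skipped. In ACLT sample 1 the longest rising series on plate 1 held 40 of 95 miRNAs, whereas the longest falling series held 9. In Sham sample 1 these lengths were 35 and 9, and in the other 4 samples the rising series held 24 to 27 and the falling series 9 to 11. The 40 miRNAs of the series in ACLT sample 1 also stand in the order of their names. Position on the plate and order of names thus cannot be told apart here. miR-203 and miR-205 were on a longest rising series in both first samples and in ACLT sample 3. In Sham samples 2 and 3 only miR-205 was, and in ACLT sample 2 neither was. miR-200a, miR-200b and miR-200c were on none in any sample. From miR-181a to miR-652, 18 miRNAs that follow each other in the ACLT series, though not always in adjacent wells, rose in Sham sample 1 as well. Within that stretch the Ct in ACLT sample 1 was 30.09 for miR-192, 30.23 for miR-203, 30.33 for miR-205 and 30.35 for miR-222, and in Sham sample 1 it was 28.44, 28.58, 28.69 and 28.77 for the same miRNAs. 6 of the 7 miRNAs called lower in ACLT in the whole table are in this stretch, miR-203 and miR-205 among them. This order was looked at after the values were seen, and its part in the results below was not tested.

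**Figure D1:**
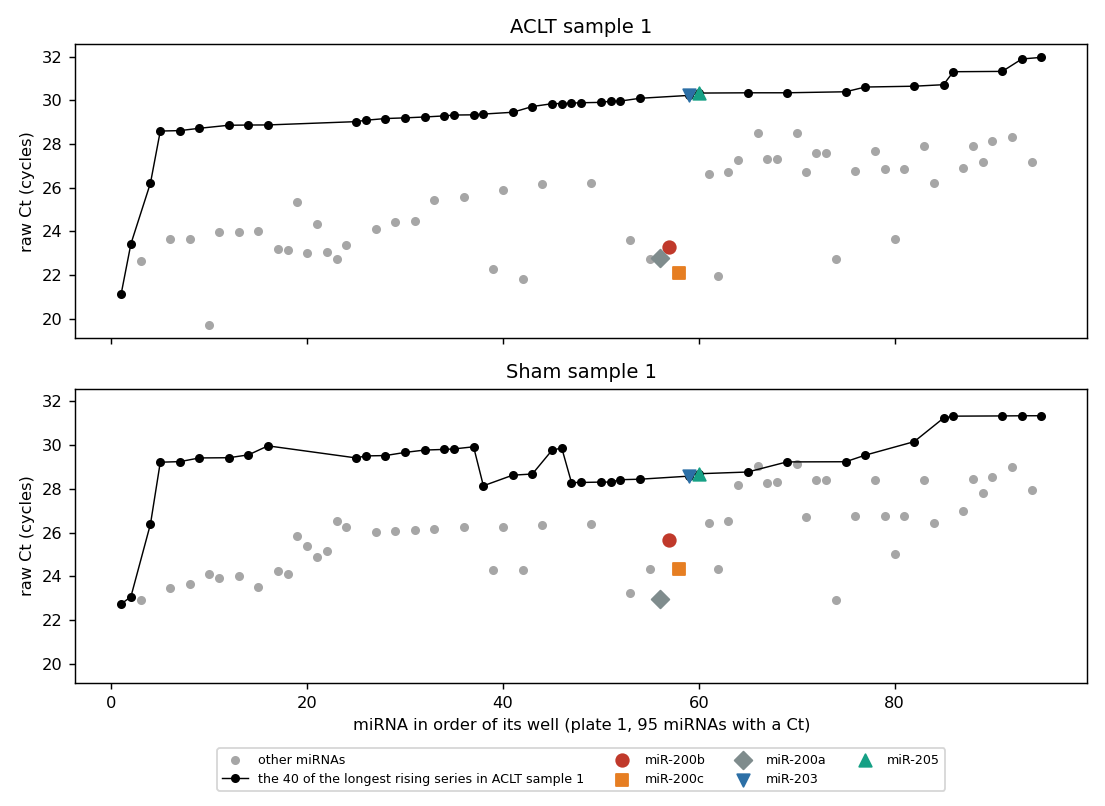
Raw Ct (cycles) of the 95 miRNAs of plate 1 against their order by well, in ACLT sample 1 (upper panel) and Sham sample 1 (lower panel). Black points joined by a line are the 40 miRNAs of the longest rising series in ACLT sample 1, on which miR-203 and miR-205 sit, while miR-200a, miR-200b and miR-200c lie well below it.

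Levels are given as minus ΔCt, the Ct of the U6 well of the same sample and plate minus the Ct of the miRNA, so that 1 unit stands for 2-fold more RNA if the PCR doubles its product in each cycle. All 5 members were on plate 1 and passed the filter on Ct. Against Sham, miR-200b and miR-200c were higher in ACLT by 2.24 and 2.49 log2 units, miR-203 and miR-205 fell by 1.56 and 1.63, and miR-200a showed no detectable difference. In the limma fit over all 101 tested miRNAs 4 of the 5 members had an adjusted p under 0.05, of which 2 were higher and 2 lower. Among all tested miRNAs 19.8% passed, 12.9% as higher and 6.93% as lower. The median change was -0.12 over the 5 members and 0.19 over all tested miRNAs. In such bulk samples fewer cells that carry a miRNA and less of it per cell cannot be told apart.

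miR-200b, the first miRNA of its cluster, had levels of 2.63, 2.49 and 3.29 in ACLT samples 1 to 3, against -0.30, 0.89 and 1.11 in Sham samples 1 to 3. The lowest ACLT value lay 1.38 above the highest Sham value, so the groups did not overlap. The level averaged 2.81 ± 0.43 in ACLT samples and 0.57 ± 0.76 in Sham samples (SD, n = 3 each). The change was 2.24 ± 0.61 (SE; limma adjusted p = 0.00297), a 4.72-fold higher level in ACLT. Without Sham sample 1, the lowest of that group, it was 1.81 and still passed.

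miR-200c, which has the seed of miR-200b but comes from the other cluster, had levels of 3.85, 2.84 and 3.68 in ACLT samples, against 1.01, 0.86 and 1.03 in Sham samples. All ACLT values lay at least 1.81 above the Sham values, and the Sham values lay close together. The means were 3.46 ± 0.54 in ACLT samples and 0.97 ± 0.10 in Sham samples (SD, n = 3 each). The close Sham levels came from raw Ct values of 24.33, 26.05 and 25.42, which spread by more than a cycle as the U6 Ct did (25.35, 26.90 and 26.45). The change was 2.49 ± 0.60 (SE; limma adjusted p = 0.000546), a 5.62-fold higher level in ACLT. miR-200c ranked 7th and miR-200b 10th from the top among the 101 changes, and both passed with each single sample left out in turn.

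miR-200a, made from the same primary transcript as miR-200b, has a raw Ct in all samples but no deposited ΔCt, which 103 of the 104 miRNAs have. Its level was computed here from its raw Ct and the U6 well. Its levels were 3.16, 2.17 and 2.35 in ACLT samples, against 2.37, 3.32 and 2.35 in Sham samples. The groups overlapped over nearly their whole range. The means were 2.56 ± 0.53 in ACLT samples and 2.68 ± 0.56 in Sham samples (SD, n = 3 each), and the change was -0.12 with a 95% interval from -1.27 to 1.03 (limma adjusted p = 0.882). This interval ends below the changes of miR-200b and miR-200c, whose own 95% intervals start at 1.03 and 1.31. All 3 intervals treat the wells as independent, and that of miR-200a counts the dependent Sham value. The differences between these miRNAs are compared within samples below. The sign of the change turned when ACLT sample 2 (0.07) or Sham sample 2 (0.20) was left out.

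miR-203 had levels of -4.29, -4.84 and -4.41 in ACLT samples, against -3.24, -2.27 and -3.36 in Sham samples. The groups did not overlap, with a gap of 0.93 between the highest ACLT and the lowest Sham value. The means were -4.51 ± 0.29 in ACLT samples and -2.96 ± 0.60 in Sham samples (SD, n = 3 each). The change was -1.56 ± 0.60 (SE; limma adjusted p = 0.047), a 2.94-fold lower level in ACLT. With no limit on Ct the adjusted p was 0.0507, and the call was lost without any single ACLT sample and without Sham sample 2 or 3, with changes of -1.21 to -1.76.

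miR-205 had levels of -4.40, -4.43 and -3.39 in ACLT samples, against -3.34, -2.08 and -1.91 in Sham samples. The third ACLT value and the first Sham value lay only 0.05 apart, so the groups were separate by a small margin. The means were -4.07 ± 0.59 in ACLT samples and -2.45 ± 0.78 in Sham samples (SD, n = 3 each). The change was -1.63 ± 0.59 (SE; limma adjusted p = 0.0356), a 3.09-fold lower level in ACLT. The call was lost without ACLT sample 1 or 2 and without Sham sample 2 or 3, with changes of -1.36 to -1.47. When samples 2 and 3 were averaged into 1 per group, the changes of miR-203 and miR-205 were -1.43 and -1.48 and neither passed (limma adjusted p = 0.291 and 0.29), while miR-200b (2.41) and miR-200c (2.57) still did. With samples 1 and 2 alone, none of the 5 passed, at 2.27 for miR-200b, 2.41 for miR-200c, -1.81 for miR-203 and -1.70 for miR-205.

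**Figure D2:**
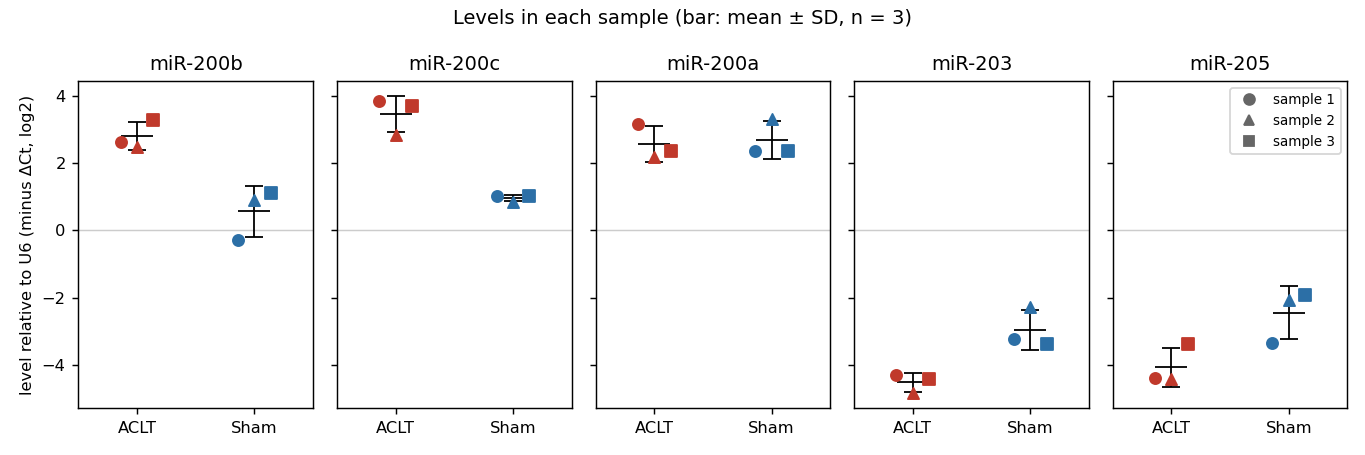
Level relative to U6 (minus ΔCt, log2) of each member in the 3 ACLT samples (red) and the 3 Sham samples (blue), with marker shape for the sample number and the mean ± SD as a black bar. ACLT lies above Sham for miR-200b and miR-200c and below it for miR-203 and miR-205, and the groups overlap for miR-200a.

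The groups did not overlap for 4 of the 5 members, against 25.7% of all tested miRNAs. The mean Ct over all 6 samples placed miR-200a 8th, miR-200c 14th, miR-200b 23rd, miR-205 72nd and miR-203 86th from the lowest of 104, which orders the wells and not amounts, since the sources used here give no assay efficiencies. All 13 miRNAs called higher in ACLT, miR-200b and miR-200c included, were among the 16 off the factor in both groups. Of the 7 called lower, 6 were among the 70 tested miRNAs on it in both groups, and miR-203 and miR-205 are 2 of these.

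**Figure D3:**
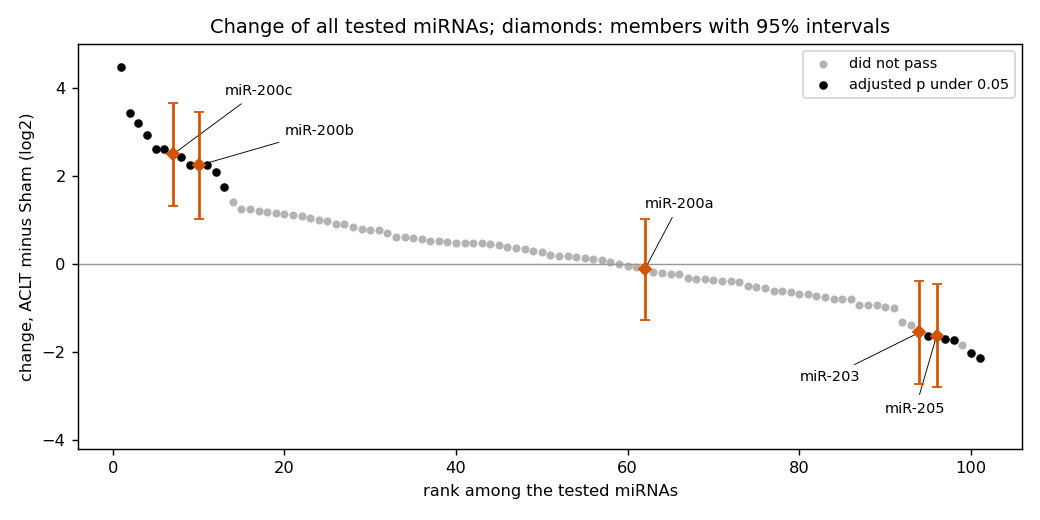
Change, ACLT minus Sham (log2), of the 101 tested miRNAs by rank, with black points for limma adjusted p under 0.05, grey points for the rest and diamonds with 95% intervals for the members. miR-200c and miR-200b stand among the 13 higher miRNAs, miR-203 and miR-205 among the 7 lower ones and miR-200a near 0.

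The normalizer decided the size of these changes. On raw Ct, with no normalizer, the members stood at 2.16 (miR-200b), 2.41 (miR-200c), -0.20 (miR-200a), -1.63 (miR-203) and -1.71 (miR-205). U6 itself had a mean Ct of 26.3 ± 0.49 in ACLT samples and 26.2 ± 0.80 in Sham samples for the plate 1 well (SD, n = 3 each). Centred on the median miRNA of each sample, miR-200b and miR-200c were at 1.78 and 2.03 and miR-203 and miR-205 at -2.01 and -2.08, and all 4 passed. Of all calls in the table, 13 were higher and 7 lower with U6, against 13 higher and 23 lower after centring on the median, 6 and 34 for all 3 references averaged, 1 and 86 for reference 3, and 13 and 15 for quantile-normalized levels.

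Each plate holds 2 other wells with a Ct that the files do not name, taken here as reference assays 2 and 3, and they gave a different picture for the higher pair. With reference 2 the changes of miR-200b and miR-200c were 1.60 and 1.85, and none of the 101 miRNAs passed (limma; 2 had an unadjusted p under 0.05). Reference 3 had a mean Ct of 28.3 ± 0.79 in ACLT samples and 31.0 ± 0.53 in Sham samples for its plate 1 well (SD, n = 3 each), so that with it the median of all miRNAs moved to -2.54. miR-200b and miR-200c then stood at -0.50 and -0.25, miR-200a at -2.85, and miR-203 and miR-205 at -4.29 and -4.36. Quantile normalization left miR-200c at 1.29 and miR-200b at 0.39, which no longer passed, while miR-200a passed as lower at -1.25 (limma adjusted p = 0.0312). miR-203 and miR-205 stood below 0 under every normalizer used, and miR-200b and miR-200c above 0 under all but reference 3.

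**Figure D4:**
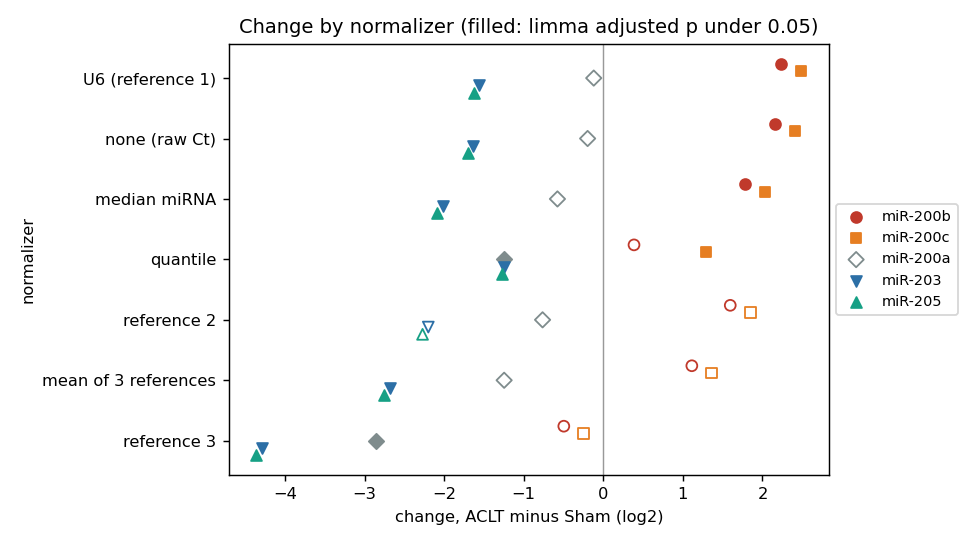
Change, ACLT minus Sham (log2), of the 5 members under 7 normalizers, with filled markers for limma adjusted p under 0.05 and open markers for the rest. Apart from quantile normalization, the markers of a row keep the same order and spacing by arithmetic, since all members are on the same plate. The row as a whole shifts, and with reference 3 every member is below 0.

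All 5 wells were on plate 1, so differences between members within a sample are the same for raw Ct, for each reference and for the median miRNA, which shift all wells of a sample alike, but not after quantile normalization. The first question is whether the clustered pair moved together. miR-200b minus miR-200a was -0.53, 0.32 and 0.94 in ACLT samples, against -2.66, -2.43 and -1.25 in Sham samples. The difference was higher in each ACLT sample than in any Sham sample, so the groups did not overlap. The pair differed in its change by 2.36 (exact permutation p = 0.1, two-sided, the smallest that 3 against 3 can give). In all, 10 pairs of members were compared, and the exact p became 0.125 after Benjamini-Hochberg adjustment over them.

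The pair with a shared seed showed no detectable difference relative to U6. miR-200b minus miR-200c was -1.21, -0.35 and -0.39 in ACLT samples, against -1.31, 0.04 and 0.08 in Sham samples. The first sample was the lowest in both groups and the groups overlapped. The difference in change was -0.25 (exact permutation p = 0.6, adjusted p = 0.667), and 0.03 without ACLT sample 1. After quantile normalization, added after the data were seen, it was -0.91 and the groups did not overlap (exact permutation p = 0.1). miR-200c minus miR-200a, from different clusters and with different seeds, averaged 0.90 ± 0.38 in ACLT samples and -1.71 ± 0.65 in Sham samples (SD, n = 3 each), a difference in change of 2.61 (exact permutation p = 0.1).

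miR-205 minus miR-203 was -0.11, 0.40 and 1.02 in ACLT samples, against -0.11, 0.19 and 1.46 in Sham samples. These values overlapped and differed by -0.07 between groups (exact permutation p = 1). The sign of this difference turned to 0.20 without ACLT sample 1, 0.40 without Sham sample 3 and 0.11 with samples 1 and 2 alone. miR-200b minus miR-205 averaged 6.88 ± 0.18 in ACLT samples and 3.01 ± 0.04 in Sham samples (SD, n = 3 each), a difference of 3.87 that was at least 3.79 and at most 3.97 when samples were left out or averaged, but 1.66 after quantile normalization. The differences of miR-200a against miR-205 and against miR-203 were 1.51 and 1.44 relative to U6, and 0.02 and 0.0023 after quantile normalization, where their groups overlapped. Between groups, 8 of the 10 pairs did not overlap relative to U6, and these pairs reuse the same members and are not independent. Among all 4465 pairs of tested miRNAs on plate 1, 49.2% did not overlap relative to U6.

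**Figure D5:**
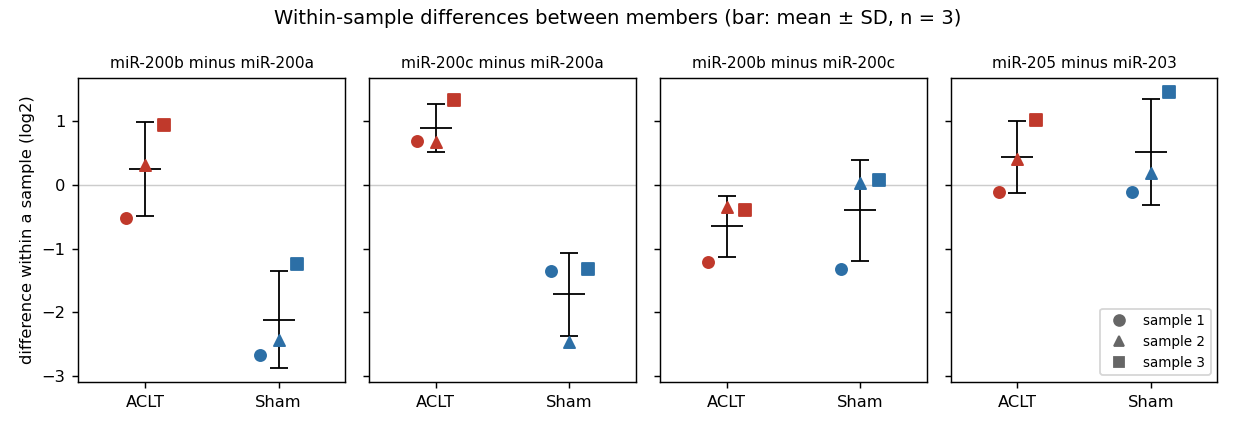
Difference in level between 2 members within each sample (log2), with ACLT samples in red, Sham samples in blue, marker shape for the sample number and the mean ± SD as a black bar. miR-200b and miR-200c are higher relative to miR-200a in all 3 ACLT samples than in any Sham sample, while the pairs miR-200b and miR-200c and miR-205 and miR-203 overlap between groups on this scale.

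The miRNAs with the most like pattern were found by the root mean square difference over the 6 samples between levels centred on their own mean. For miR-200b these were miR-30e (0.30 log2 units) and miR-378 (0.41), and for miR-200c miR-199a-3p (0.29) and miR-145 (0.33). The medians over all 96 other miRNAs were 1.07 and 1.27, and the nearest 2 lie below such a median by construction. This distance includes the change between groups, which was 2.24, 2.09, 2.43 and 2.61 for these miRNAs in the order named. miR-200b and miR-200c lay 0.55 from each other and 1.33 and 1.38 from miR-200a. The nearest to miR-200a were let-7b (0.20) and miR-191 (0.23). miR-203 was nearest to miR-192 (0.14) and miR-186 (0.15), and miR-205 to miR-222 (0.02) and miR-320 (0.18). All 4 of these are on the rising series of wells described above. miR-203 and miR-205 lay 0.58 apart. The 6 points of each pattern share the U6 well of their sample, and samples 2 and 3 are tied as described.

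Of 16 other miRNAs listed for epithelium, all were on the array and 5 were tested. Of these 5, 1 was lower and 0 were higher, against 6.93% and 12.9% of all tested miRNAs, and their median change was -0.40. miR-192, abundant in gut and liver epithelium, was lower at -1.72 (limma adjusted p = 0.0278). Like miR-203 and miR-205, miR-192 is in the stretch of wells described above and on the factor in both groups. miR-183, of sensory epithelium, stood at 1.11, miR-7a at 0.19, miR-215, which has the seed of miR-192, at -0.40, and miR-375, of pancreatic islets, at -0.62 (limma adjusted p between 0.269 and 0.834). The 11 without a Ct in every sample included miR-96 and miR-182, which are transcribed together with miR-183. They also included miR-194, which is transcribed with miR-192 or miR-215.

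Among lists for the other cells a marrow sort could hold, the summed level relative to U6 (linear scale) of the 5 mesenchymal miRNAs was 37.5 to 51.5 in ACLT samples and 4.91 to 7.16 in Sham samples, and 3 of the 5 (miR-145, miR-199a-3p and miR-214) rose in the limma fit, against 12.9% of all tested miRNAs. The other 2 stood at -0.67 (miR-143) and -0.76 (miR-152) without passing, and the list's median change was 2.43. That of the 6 myeloid and osteoclast miRNAs with a Ct was 66.8 to 81.1 in ACLT samples and 6.18 to 16.2 in Sham samples, with 1 of 6, miR-21, higher. miR-21 (mean level 5.90 in ACLT and 1.43 in Sham, log2 relative to U6) had the largest change of this list, 4.47, while the list's median change was 0.21 and the other 5 stood between -0.80 (miR-22*) and 1.04 (miR-146a). miR-223 and miR-142-3p, both abundant in myeloid cells, did not have a Ct in every sample. Of 3 erythroid, 3 lymphoid and 1 endothelial miRNAs tested 0 passed in the limma fit, against 19.8% of all tested miRNAs. Only 1 of them, a lymphoid one, had an unadjusted p under 0.05. The part of these cells in the changes of the 5 members was not tested.

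The authors' deposited table gives linear ratios of ACLT to Sham, which come from the same ΔCt values. They are 4.72 for miR-200b, 5.62 for miR-200c, 0.34 for miR-203 and 0.324 for miR-205. For miR-200a, which has no deposited ΔCt, no ratio is given.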

How the data were processed

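Total RNA (Trizol) was turned into cDNA with the QuantiMir kit and run with SYBR Green for 40 cycles on a ViiA7, per the labels' protocols. The authors deposited raw Ct per well, ΔCt on a log2 scale and a linear ratio of the U6-normalized signals, per the file headers. The ΔCt values equal raw Ct minus 1 well of the same sample and plate within 1.78e-15, and that well was taken as U6. The other wells with a Ct but no name were taken as references 2 and 3. A well listed 2 times was read from the line with values. The filter asked for a Ct under 35 throughout ACLT or throughout Sham. ACLT and Sham were compared on minus ΔCt with limma 3.58.1 in R 4.3.3 (lmFit, eBayes with a trend, two-sided, Benjamini-Hochberg over all 101 miRNAs, threshold 0.05), with miR-200a entered from raw Ct. This fit pooled the spread over all miRNAs to 404 degrees of freedom, which treats the wells of a sample as independent. Pairs of members were compared by exact permutation. The named miRNAs are the 5 members, their family's assays, the references, the 2 nearest patterns to each member, and list members that passed; others were named after their values were seen. Members and lists were chosen with earlier results of these data known. Other normalizers, Ct limits, variance models, a replicate block and leaving out samples were tried. PCR arrays have no read depth; the number of samples limits the precision. Other software was scipy 1.17.1, matplotlib 3.10.9, pandas 2.3.3 and numpy 2.4.6 under Python 3.11.15.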

Additional observations from a re-analysis of the deposited data

How the results depend on the processing

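Counts of calls moved most with the normalizer and with the samples kept. Normalized to reference 2, to reference 3, to all 3 references averaged and to the median miRNA, 0, 87, 40 and 36 miRNAs passed against 20, of which 0, 1, 6 and 13 were higher and 0, 86, 34 and 23 lower. 12 were lower on raw Ct and 15 after quantile normalization. When samples 2 and 3 were averaged 11 passed, all higher, and with only the first and the second samples 3, all higher. Leaving out each sample gave 13 to 30 in all and 0 to 16 lower. miR-200b stood at 1.60 (reference 2), -0.50 (reference 3), 1.11 (all 3 references), 0.39 after quantile normalization and 2.27 with only the first and the second samples, without passing (limma adjusted p = 0.986, 0.413, 0.116, 0.541 and 0.167). miR-200c was at 1.85, -0.25, 1.36 and 2.41 with reference 2, reference 3, the mean and only the first and the second samples (adjusted p = 0.986, 0.642, 0.0602 and 0.106). miR-200a passed as lower with reference 3 (-2.85) and quantile normalization (-1.25), and its sign turned when samples 2 and 3 were averaged (0.11); leaving out each sample gave -0.42 to 0.20. miR-203 lost its call with reference 2 (-2.20), no Ct limit (-1.56), samples 2 and 3 averaged (-1.43) and only the first and the second samples (-1.81), and ranged from -1.76 to -1.21 without each sample. miR-205 lost it with reference 2 (-2.27), samples 2 and 3 averaged (-1.48) and only the first and the second samples (-1.70), and ranged from -2.08 to -1.36. With the replicate number as a block, 1 miRNA was lower and 13 higher, and miR-203 (-1.56, adjusted p = 0.131) and miR-205 (-1.63, adjusted p = 0.0948) did not pass; deviations of same-numbered samples from their group means correlated at 0.25, 0.06 and 0.08 over the 101 miRNAs, so the numbers were not taken as pairs. The difference in change between miR-200b and miR-200c turned to 0.0285 without ACLT sample 1 and reached -0.71 without Sham sample 1. That between miR-205 and miR-203 turned to 0.11 with only the first and the second samples and ranged from -0.38 to 0.40 without each sample. The other 8 pairs kept their direction under all 10 alternatives, quantile normalization included, which was added after the data were seen and brought 2 of them to 0.02 and 0.0023. A Ct under 32, no trend and robust variances changed the call of no member.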

Other observations

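miR-200a stood out in how its values are written. Its 3 Sham Ct values are all at whole hundredths of a cycle, which holds for no other of the 104 miRNAs in Sham and for 0 in ACLT, while 9.62% of all single values end so. For miR-200b and miR-200c the 3 Sham levels sum to exactly 1.7 and 2.9, with 1 decimal only, and their ACLT levels sum to 8.415 and 10.368. A Sham sum with 1 decimal only was found for 10 of 104 miRNAs, 7 of them among the 16 off the factor in both groups (miR-21, miR-29b, miR-30a, miR-30d, miR-200b, miR-200c and miR-214), and an ACLT sum for 2 of 104, 1 of them among these 16. Both patterns were looked at after the values were seen. The change of miR-30e equalled that of miR-200b, at 2.24 each.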
